A study of Mus musculus with 84 samples.

Results

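The 9 genes described here encode chemokines, the secreted or membrane-held proteins that guide leukocytes: Ccl2, Ccl5, Ccl7, Cxcl1, Cxcl9, Cxcl10, Cxcl12, Cxcl13 and Cx3cl1. They were taken by gene name, from a list drawn up with earlier results of these data known, and are 9 of the 48526 genes counted in the libraries of experimental autoimmune encephalomyelitis (EAE) and 9 of the 25773 genes counted in the libraries of astrocyte subtypes. EAE is a mouse model of multiple sclerosis, induced here in 10-week-old female C57BL/6J mice with a myelin oligodendrocyte glycoprotein peptide in complete Freund's adjuvant and pertussis toxin. Astrocytes were sorted as live cells negative for the leukocyte proteins CD11B and CD45 and positive for the astrocyte surface protein ACSA-2 (the product of Atp1b2), and were split by the glutamate transporter GLAST (the product of Slc1a3), and their RNA was sequenced from the 3′ ends of transcripts. The question was how astrocyte populations of hindbrain and spinal cord change over the course of the disease.

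There were 66 EAE libraries in 12 groups of 4 to 6. The stages were unimmunized control mice (C), clinical score 1 with a limp tail (E1), score 4 with hind leg paralysis (E4) and chronic disease (Ech). The populations were ACSA-2-positive GLAST-negative cells of hindbrain (HB_A), ACSA-2-positive GLAST-positive cells of hindbrain (HB_AG) and ACSA-2-positive GLAST-negative cells of spinal cord (SC_A). The controls were not immunized, so the disease, the adjuvant and the toxin cannot be told apart. A library could hold the pooled cells of more than 1 mouse, and p-values measure the spread between libraries. Library names carry a number that recurs between populations of the same stage and in no pair of libraries of different stages, and 64 of the 66 libraries share theirs with a library of another population; the labels do not say what it marks, and comparisons between populations are also given with it as a block. A second set held 15 libraries of 5 populations sorted from FVB/N mice and 3 libraries of neonatal C57BL/6J astrocytes kept in culture, in groups of 3.

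Chemokines bind receptors that couple to G proteins and draw the cells that carry them along a gradient. In the inflamed central nervous system astrocytes are a known source of several of them: CCL2 and CCL7 attract monocytes through CCR2, CCL5 attracts T cells and monocytes, CXCL1 attracts neutrophils through CXCR2, and CXCL9 and CXCL10 attract activated T cells through CXCR3. CXCL12 and CXCL13 position lymphocytes in resting tissue and lymphoid follicles, and CX3CL1 (fractalkine) is a membrane-anchored ligand, made largely by neurons, for CX3CR1 on microglia. Interferons and the transcription factor NF-kappaB are known inducers of the inflammatory members.

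The sequence before the start of transcription is shown for 3 CXC members of chromosome 5 that differed in how often they were called in EAE, namely Cxcl10 in 8 of 9 comparisons of a stage with its controls, Cxcl9 in 5 and Cxcl1 in 1. The 250 bases before the annotated start were taken from RefSeq (build GRCm38.p6), which matched 6 of the 9 genes, and are printed 5′ to 3′ on the strand of the gene. They lie at chr5:92348890-92349139 (minus strand) for Cxcl10, chr5:92328080-92328329 (minus strand) for Cxcl9 and chr5:90890995-90891244 (plus strand) for Cxcl1. Capitals mark letters that matched a motif searched on both strands: the NF-kappaB consensus, the interferon-stimulated response element TTTCNNTTTC and the interferon-gamma-activated site TTCNNNGAA.
Cxcl10: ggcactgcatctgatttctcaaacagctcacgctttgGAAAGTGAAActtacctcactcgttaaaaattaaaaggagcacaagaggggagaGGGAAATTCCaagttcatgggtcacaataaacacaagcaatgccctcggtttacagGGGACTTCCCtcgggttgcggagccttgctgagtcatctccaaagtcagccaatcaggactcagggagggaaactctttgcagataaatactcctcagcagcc
Cxcl9: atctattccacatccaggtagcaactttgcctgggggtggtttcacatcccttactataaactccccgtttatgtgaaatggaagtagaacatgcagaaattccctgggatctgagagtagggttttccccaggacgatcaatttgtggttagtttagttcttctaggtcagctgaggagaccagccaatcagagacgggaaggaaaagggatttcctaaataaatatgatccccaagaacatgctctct
Cxcl1: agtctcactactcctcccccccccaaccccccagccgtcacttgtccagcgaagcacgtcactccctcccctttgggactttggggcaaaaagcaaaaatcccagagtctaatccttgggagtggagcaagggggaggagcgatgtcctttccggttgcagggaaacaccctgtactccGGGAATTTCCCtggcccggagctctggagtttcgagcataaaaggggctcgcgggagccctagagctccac
In Cxcl10 the response element matched on the opposite strand from -213 to -204, and the NF-kappaB consensus matched from -159 to -150 and from -103 to -94, counted from the start. In Cxcl1 the NF-kappaB consensus matched from -71 to -62 and, on the opposite strand and overlapping it, from -70 to -61. No motif searched was found in the Cxcl9 window. Of 32817 mouse promoter windows of this length, 3.9% held the NF-kappaB consensus, 2.97% the response element and 7.01% the activated site, so a match is a description of the letters only.

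The EAE libraries held 1313682 to 4895220 counts, so that 3 counts, the level treated here as the limit of detection in a library, were worth 0.634 to 2.44 CPM (counts scaled to a library total of 1e+06). Limits and intervals of this kind cover counting error only. The summed level of 10 astrocyte marker genes was 17615 to 31845 CPM in the hindbrain libraries, and in spinal cord 12973 to 18834 CPM at C, 4326 to 22208 at E1, 2427 to 3927 at E4 and 3501 to 5972 at Ech. In spinal cord at E4, 8 of 10 astrocyte genes were called lower and 1 higher, and 8 of 10 oligodendrocyte genes were called higher. In these bulk libraries fewer cells of a type and less RNA per cell cannot be told apart. The spinal cord E4 library 2 stood apart, with 12 myeloid genes summing to 3276 CPM (group median 92.7) and 5 neutrophil genes to 536 CPM (group median 19). The labels of spinal cord E1 library 1 disagree on its region, and its summed Hox genes (584 CPM) lay within the range of the other spinal cord E1 libraries. Calls lost or gained in spinal cord without both, and called folds moved by more than 1.5 times without spinal cord E4 library 2, are given beside the result.

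Of the 9 members only Cx3cl1 was well detected in control astrocytes, and the inflammatory members Ccl2, Ccl5, Ccl7, Cxcl1 and Cxcl9 were at or near 0 there. A gene was called when edgeR's quasi-likelihood test gave a Benjamini-Hochberg adjusted p below 0.05 over the 23324 genes tested together with a log2 fold change of more than 1 in size, and all 9 members were tested. In hindbrain HB_A, 3 members were called higher at E1, where 0.635% of all genes tested were, 4 at E4 (0.707% of all genes) and 1 at Ech (0.189%). In hindbrain HB_AG the counts were 4 at E1 (1.27% of all genes), 2 at E4 (1.66%) and 0 at Ech (1.21%). In spinal cord SC_A, 6 members were called higher at E1 (2.5% of all genes), 4 at E4 (6.8%) and 4 at Ech (5.16%), and 1 member, Cx3cl1, was called lower at each stage (3.68%, 11.1% and 9.57% of all genes). The 3 stages of a population share their control libraries, so these counts are not independent of each other.

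**Figure D1:**
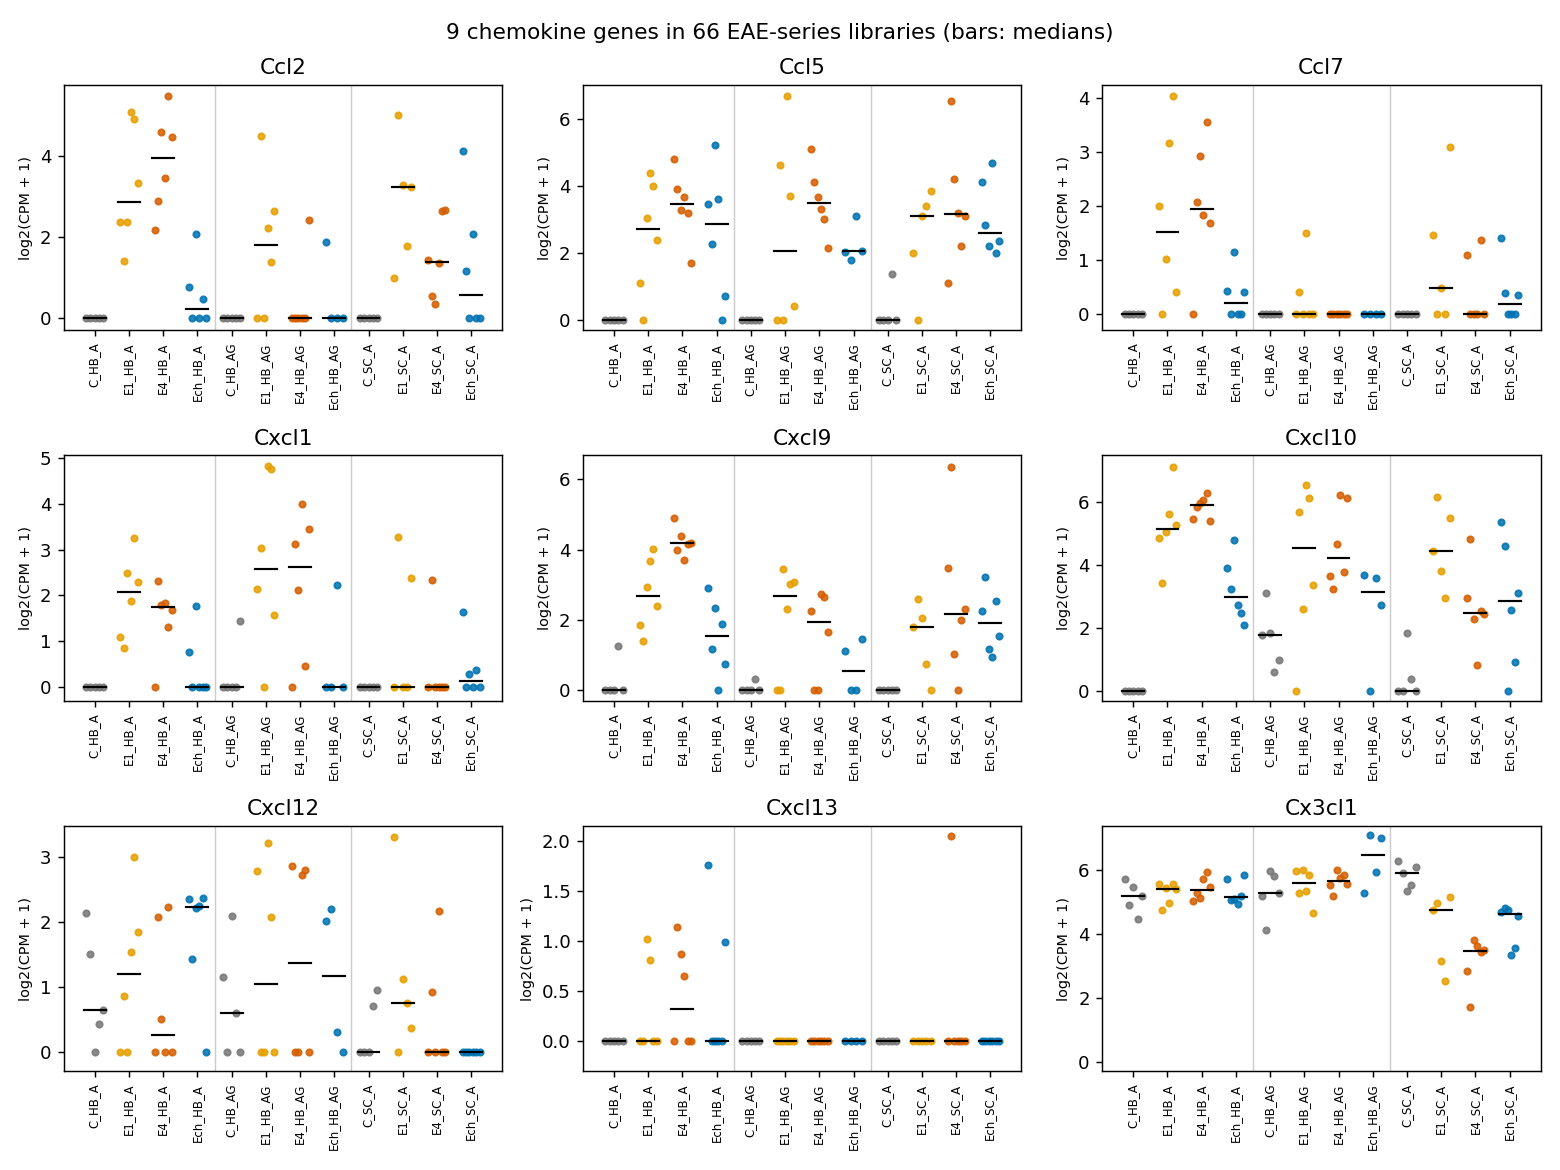
Expression of the 9 chemokine genes in the 66 EAE libraries, as log2(CPM + 1) on the vertical axis of each panel, by group; points are libraries and bars are group medians. Controls sit at or near 0 for every gene but Cx3cl1, Cxcl12 and, in HB_AG, Cxcl10, and Cx3cl1 is the gene whose spinal cord points fall below the controls.

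**Figure D2:**
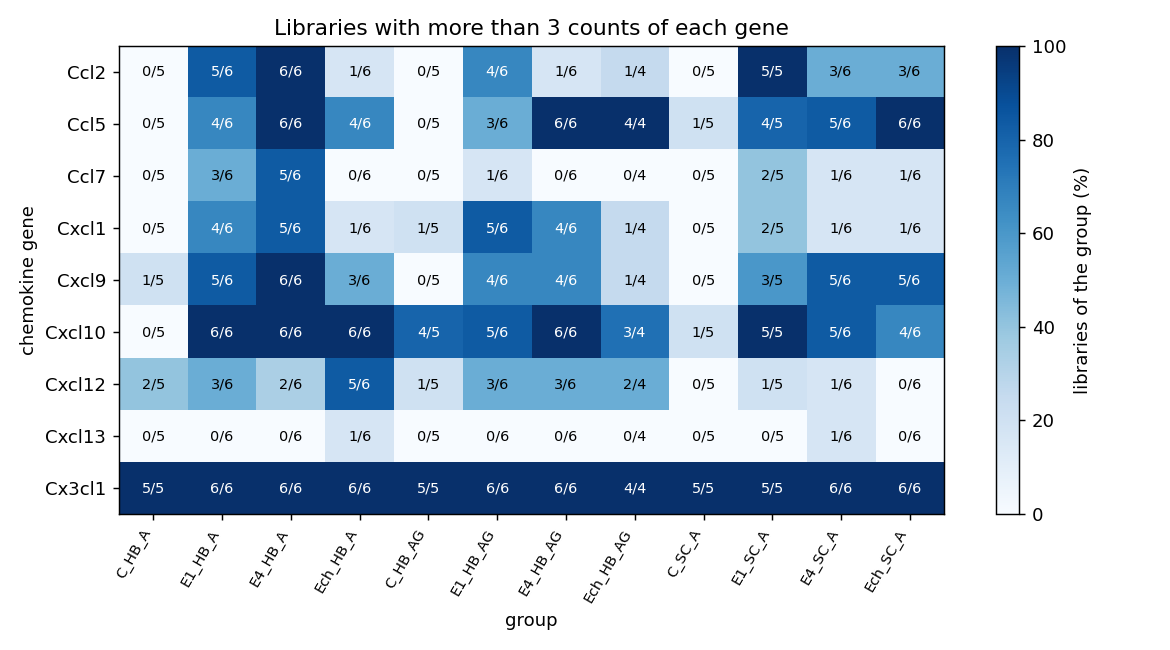
Share of libraries in each group (colour, percent) with more than 3 counts of each chemokine gene; the numbers give libraries over this limit and libraries in the group. Cx3cl1 passed it in all 66 libraries, Cxcl10 in 51 and Cxcl13 in 2.

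Cxcl10, an interferon-induced ligand of CXCR3 on activated T cells, had the highest median of the inflammatory members in both hindbrain populations at E1 and E4 and in spinal cord at E1, but not in spinal cord at E4, where that of Ccl5 was higher (7.86 against 4.61 CPM). In HB_A it was at 0 in all 5 control libraries, and reached a lowest, median and highest value of 9.77, 34.9 and 139 CPM at E1, of 41, 59.1 and 76.9 CPM at E4 and of 3.29, 7.03 and 26.6 CPM at Ech. Every EAE library lay above every control. Against the limit of 3 counts per library, the mean was at least 33.3-fold higher at E1 (21.1-fold without E1 library 5), 39.0-fold at E4 and 7.07-fold at Ech, with adjusted p = 6.4e-05, 3e-05 and 0.035 from edgeR. The first 2 of these calls held without any 1 library, and the Ech call was lost without any 1 of the 5 controls or without Ech library 1 or 3 (adjusted p up to 0.15). The Ech call was also lost with edgeR's own filter (adjusted p = 0.052) and with the bias-adjusted fit (0.75).

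In HB_AG the control libraries held 2.45, 7.58, 2.61, 0.508 and 0.982 CPM of Cxcl10. EAE libraries held 0, 30.0 and 91.5 CPM (lowest, median, highest) at E1, 8.46, 18.7 and 73.5 CPM at E4, and 11.9, 0, 11 and 5.65 CPM in the 4 libraries at Ech. The E4 libraries all lay above the controls, while the E1 and Ech ranges overlapped them. By group means the ratio was 13.3 at E1 (edgeR adjusted p = 0.02) and 11.8 at E4 (adjusted p = 0.024), and at Ech it was 2.52, which was not called. The E1 call was lost without control 1, 3, 4 or 5 or E1 library 4 and the E4 call without the same controls or E4 library 4 or 6, with adjusted p up to 0.082 and 0.085.

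In spinal cord the control libraries held 0, 0, 2.58, 0.314 and 0 CPM of Cxcl10, and the 5 libraries at E1 held 20.9, 70.6, 13.0, 6.85 and 44.4 CPM. E4 libraries held 0.778, 4.61 and 27.4 CPM (lowest, median, highest) and Ech libraries 0, 6.33 and 40.4 CPM. All E1 libraries lay above the controls, and the E4 and Ech ranges overlapped them. The ratio of means was 53.9 at E1 (edgeR adjusted p = 0.00065), 13.8 at E4 (adjusted p = 0.018) and 22.2 at Ech (adjusted p = 0.0037). The highest E4 value was that of library 2, which also held the most myeloid transcripts, and without it the E4 ratio was 7.14 and the call was lost (adjusted p = 0.11). The E4 call was also lost with the bias-adjusted fit (adjusted p = 0.1). Without Ech library 1 the Ech ratio was 12.7. An exon of Art3 lies on the opposite strand of Cxcl10 (chr5:92346638-92348889), and whether counting used the strand is not given in the sources used here, so reads of these genes cannot be told apart.

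Cxcl9 encodes another CXCR3 ligand that depends on interferon-gamma, and its gene neighbours Cxcl10 (chr5:92321347-92328079). In HB_A it was at 0 in 4 controls and at 1.39 CPM in the remaining one, and held 1.63, 5.47 and 15.2 CPM (lowest, median, highest) at E1, 12, 17.2 and 28.8 CPM at E4, and 0, 1.96 and 6.5 CPM at Ech. All E1 and E4 libraries lay above all controls in CPM, but E1 library 2 (1.63 CPM) had 2 counts and control 4 (1.39 CPM) had 4. E4 was called, with a ratio of means of 66 and adjusted p = 0.015 from edgeR. That call was lost without control 1, 2, 3 or 5 (adjusted p up to 0.075). The ratio at E1 was 25.3, which was not called (adjusted p = 0.14). It was called with DESeq2 (adjusted p = 0.048) and with the HB_A libraries fitted alone (edgeR adjusted p = 0.0012).

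In HB_AG a single count of Cxcl9 was found in 5 controls, and E1 libraries held 0, 5.53 and 9.99 CPM (lowest, median, highest). The ranges overlapped, since 2 E1 libraries were at 0 as well. Cxcl9 was called at E1 (edgeR adjusted p = 0.026), with a ratio of pooled counts per library size of 79 whose 95% counting interval ran from 13.8 to 3152. The call was lost without control 1, 2, 3 or 5 (adjusted p up to 0.083), with the HB_AG libraries fitted alone (0.17) and with the bias-adjusted fit (0.087). At E4 the libraries held 0, 2.94 and 5.61 CPM and at Ech 1.15, 0, 0 and 1.72 CPM, and neither stage was called. The E4 difference (edgeR adjusted p = 0.061) was called with edgeR's own filter (0.049), with no filter (0.026) and with DESeq2 (0.013). It was also called without both doubted spinal cord libraries (0.042).

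In spinal cord all 5 controls were at 0 for Cxcl9. The libraries at E1 held 2.49, 5.01, 3.16, 0.685 and 0 CPM, those at E4 0, 3.48 and 81.3 CPM and those at Ech 0.909, 2.84 and 8.25 CPM (lowest, median, highest). All Ech libraries and all but 1 library at E1 and at E4 lay above the controls. More than 3 counts were held by 3 of 5 libraries at E1, 5 of 6 at E4 and 5 of 6 at Ech. The mean was at least 2.00-fold higher at E1 (edgeR adjusted p = 0.022), 14.6-fold at E4 (adjusted p = 4.7e-05) and 3.07-fold at Ech (adjusted p = 0.0032). Library 2 gave the 81.3 CPM at E4, without which the bound was 3.20-fold, and the E4 call was kept without each library in turn. The E1 call was lost without control 4 (adjusted p = 0.054). It was also lost with the spinal cord fitted alone (0.053), within sample-sheet numbers above 56 (0.1) and with the bias-adjusted fit (0.2).

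Ccl2, the main ligand that recruits CCR2-bearing monocytes, was at 0 in all 15 control libraries (chr11:82035571-82037453). In HB_A it held 1.63, 6.63 and 32.9 CPM (lowest, median, highest) at E1, 3.53, 15.5 and 43.6 CPM at E4, and 0, 0.19 and 3.23 CPM at Ech. Every E1 and E4 library lay above the controls, and 3 of the 6 Ech libraries were at 0. More than 3 counts were held by 5 of 6 libraries at E1 and 6 of 6 at E4. The mean was at least 9.17-fold higher at E1 (edgeR adjusted p = 0.028) and 12.1-fold at E4 (adjusted p = 0.015). The E1 call was lost without any 1 control or without E1 library 4 or 5, and the E4 call without control 1, 2, 4 or 5, with adjusted p up to 0.095 and 0.06.

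In HB_AG Ccl2 was seen in 4 of 6 libraries at E1, at 0, 2.62 and 21.6 CPM (lowest, median, highest), and in 1 library each at E4 (4.32 CPM) and Ech (2.68 CPM). The E1 mean was at least 5.52-fold higher than the limit (edgeR adjusted p = 0.038), or 2.16-fold without E1 library 2. The call was lost without any 1 control or without E1 library 2 or 4 (adjusted p up to 0.13), with the HB_AG libraries fitted alone (0.17) and with the bias-adjusted fit (0.093). In spinal cord the libraries at E1 held 0.996, 31.0, 8.69, 2.40 and 8.43 CPM, those at E4 0.26, 1.62 and 5.33 CPM and those at Ech 0, 0.611 and 16.5 CPM (lowest, median, highest). All E1 and E4 libraries lay above the controls, and 3 Ech libraries did not. At E4 only 3 of 6 libraries had more than 3 counts, and the lowest had 1. The mean was at least 9.07-fold higher at E1 (adjusted p = 0.0056; 4.52-fold without E1 library 2), 2.13-fold at E4 (adjusted p = 0.023) and 3.06-fold at Ech (adjusted p = 0.014). Without Ech library 1, which held 16.5 CPM, the Ech mean lay below the limit and the call was lost (adjusted p = 0.13). The Ech call was also lost with the bias-adjusted fit (0.051). The E4 call was lost with the sample-sheet number of the library names as a batch term (adjusted p = 0.1) and with the bias-adjusted fit (0.12), and 5 of the 6 spinal cord E4 libraries, but no spinal cord control, have a number of 56 or below.

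Ccl7, another CCR2 ligand whose gene lies next to Ccl2 (chr11:82045712-82047525), was at 0 in all controls and was seen mostly in the GLAST-negative populations. It held 0, 2.02 and 15.5 CPM (lowest, median, highest) in HB_A at E1 and 0, 2.88 and 10.7 CPM at E4, where 5 of 6 libraries were above the limit of 3 counts. In spinal cord the libraries at E1 held 1.74, 0, 0.395, 0 and 7.59 CPM. HB_AG libraries held at most 1.81 CPM at any stage. With the HB_A libraries fitted alone, Ccl7 was called there at E1 (edgeR adjusted p = 0.0085) and at E4 (0.011). In the fit of all groups it was called only in spinal cord at E1, where the mean was at least 1.71-fold above the limit (edgeR adjusted p = 0.046). This call was lost without any 1 control or E1 library 1, 3 or 5 (adjusted p up to 0.16). It was also lost under the replicate block (0.1), with DESeq2 (0.11), with no filter on low counts (0.059), with the spinal cord fitted alone (0.097), with the bias-adjusted fit (0.087) and within sample-sheet numbers above 56 (0.17). Without E1 library 5 the mean lay below the limit. No difference between populations in the Ccl7 response was called (edgeR adjusted p = 1).

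Ccl5, which attracts T cells and monocytes and is itself made by T cells, was called in each population, at 2 stages in both hindbrain populations and at 3 in spinal cord (chr11:83525778-83530518). It was at 0 in all controls but 1, a spinal cord library with 1.57 CPM. In HB_A it held 0, 5.73 and 20.0 CPM (lowest, median, highest) at E1, 2.23, 10.2 and 27.0 CPM at E4, and 0, 6.86 and 35.9 CPM at Ech. The mean was at least 5.37-fold higher at E1 (edgeR adjusted p = 0.045), 8.10-fold at E4 (adjusted p = 0.016) and 6.96-fold at Ech, where it was not called (adjusted p = 0.065). The E1 call was lost without any 1 control or E1 library 3, 4 or 5, and the E4 call without control 1, 2, 4 or 5 (adjusted p up to 0.14 and 0.067). With RLE size factors or edgeR's own filter the E1 call was lost (adjusted p = 0.051 each), and with the bias-adjusted fit both were (0.48 and 0.33).

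In HB_AG Ccl5 held 0, 6.10 and 101 CPM (lowest, median, highest) at E1, 3.39, 10.4 and 33.6 CPM at E4, and 3.06, 2.48, 7.56 and 3.19 CPM at Ech. All E4 and Ech libraries lay above the controls. The mean was at least 23.6-fold higher at E1 (edgeR adjusted p = 0.0012) and 14-fold at E4 (adjusted p = 0.0029), and both calls were kept without each library in turn. Without E1 library 4, which held the 101 CPM, the E1 bound was 7.40-fold. The Ech difference, at least 4.21-fold, was not called (adjusted p = 0.056), but was with the replicate number as a block (adjusted p = 0.033), as was that of HB_A (adjusted p = 0.02). Those of HB_AG and HB_A were also called with no filter (0.0062 and 0.0019), with DESeq2 (0.0037 and 0.00067) and without both doubted libraries (0.04 and 0.039).

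In spinal cord Ccl5 held 2.99, 0, 7.51, 9.59 and 13.5 CPM at E1, 1.13, 7.86 and 91.6 CPM at E4, and 3, 5.11 and 24.5 CPM at Ech (lowest, median, highest). The Ech libraries all lay above the controls, 1 library at E1 and 1 at E4 did not, and the highest E4 value was again that of library 2. The ratio of means was 21.4 at E1 (edgeR adjusted p = 0.048), 68.7 at E4 (adjusted p = 0.001) and 30.7 at Ech (adjusted p = 0.01). The E4 and Ech calls were kept without each library in turn, and the E1 call was lost without control 1, 2, 3 or 5 or E1 library 3, 4 or 5 (adjusted p up to 0.11). The E1 call was also lost with RLE size factors (0.053), with the sample-sheet number as a batch term (0.064), within numbers above 56 (0.086) and with the bias-adjusted fit (0.16). Without library 2 the E4 ratio was 24.1, and without both doubted spinal cord libraries the log2 fold change at E4 was 4.30 (adjusted p = 0.014).

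Cxcl1, a ligand of CXCR2 on neutrophils, was highest in GLAST-positive hindbrain cells but was called there only with the bias-adjusted fit, at E1. Controls were at 0 except 1 HB_AG library at 1.72 CPM. In HB_AG the libraries held 0, 5.30 and 27.2 CPM (lowest, median, highest) at E1 and 0, 5.51 and 14.9 CPM at E4. Both ranges overlapped the controls, with adjusted p = 0.13 and 0.17 from edgeR. With the bias-adjusted fit of edgeR the E1 difference was called (log2 fold change 4.47, adjusted p = 0.0065). In HB_A all 6 libraries at E1 held Cxcl1, at 0.814, 3.28 and 8.48 CPM, against 0 in the controls, and 4 had more than 3 counts. This difference was not called (edgeR adjusted p = 0.19). With the HB_A libraries fitted alone Cxcl1 was called at E1 (edgeR adjusted p = 0.011) and at E4 (0.034). In the fit of all groups without the bias adjustment, the 1 call was in spinal cord at E1. There 2 of 5 libraries held 8.66 and 4.22 CPM and 3 were at 0 (at least 2.27-fold by the mean, edgeR adjusted p = 0.046). This call was lost without any 1 control or E1 library 2 or 5 (adjusted p up to 0.11) and under the replicate block (0.077). It was also lost with the sample-sheet number as a batch term (0.051), within numbers above 56 (0.15), with the spinal cord fitted alone (0.11) and with the bias-adjusted fit (0.14). Without E1 library 2 the mean lay below the limit.

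The 2 homeostatic members gave no call at any stage. Cxcl12, which retains CXCR4-bearing cells, lay between 0 and 8.96 CPM in all groups, and was at 0 in all 6 spinal cord Ech libraries, against 0 to 0.936 CPM in the spinal cord controls. That difference was not detectable at this depth. Cxcl13, which attracts B cells, had 28 counts in all 66 libraries and passed 3 counts in 2 of them, one of which was spinal cord E4 library 2 with 3.14 CPM.

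Cx3cl1, the fractalkine gene (chr8:94772009-94782427), was detected in every library and fell in spinal cord. Its spinal cord controls held 77.3, 59.7, 40.1, 45.5 and 68.3 CPM, the libraries at E1 25.9, 30.5, 7.90, 4.8 and 35.1 CPM, those at E4 2.25, 10.0 and 13.0 CPM and those at Ech 9.09, 23.8 and 27.2 CPM (lowest, median, highest). Every spinal cord EAE library lay below every control. The log2 fold change was -1.47 (standard error 0.37, adjusted p = 0.0049 from edgeR) at E1, -2.70 (0.37, 1.1e-08) at E4 and -1.52 (0.35, 0.00061) at Ech. These calls were kept without each library in turn. Library names carry a sample-sheet number, and within the spinal cord libraries above number 56, which held 1 E4 library and so gave no E4 value, the E1 value was -1.28 and not called (adjusted p = 0.083), and the Ech value was -1.24 (adjusted p = 0.037).

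In hindbrain edgeR called Cx3cl1 at no stage. HB_A groups had means of 36.6 ± 12.3 CPM at C (SD, n = 5), 38.9 ± 8.68 at E1, 43.5 ± 11.3 at E4 and 40.2 ± 11.6 at Ech (n = 6 each), and no stage was called (log2 fold changes between 0.10 and 0.25). HB_AG groups had means of 41.8 ± 18 CPM at C (n = 5), 47.7 ± 15.9 at E1 and 50.3 ± 9.74 at E4 (n = 6 each). The 4 HB_AG libraries at Ech held 37.9, 139, 61.4 and 128 CPM, of which 2 were above all controls, with a log2 fold change of 1.13 (standard error 0.38, adjusted p = 0.11 from edgeR). This difference was called with DESeq2 (1.17, adjusted p = 0.045) and with the bias-adjusted fit (1.12, 0.037). In the same libraries 5 neuron genes summed to 260 to 529 CPM, against 54.8 to 193 CPM in the controls, and their part was not tested.

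The spinal cord change at E4 differed from that of HB_A by -2.95 on the log2 scale (standard error 0.51, adjusted p = 9.1e-06) and from that of HB_AG by -2.96 (0.50, 6.8e-06), and these were 2 of the 4 calls among the tests of a difference in response. Genes called lower in these tests of the difference made up 6% and 8.49% of all genes. At Ech the differences were -1.66 (0.49, 0.023; lost without HB_A control 4 or spinal cord control 1, adjusted p up to 0.062, and with the sample-sheet number as a batch term, 0.064) and -2.64 (0.51, 9.2e-05), where 5.26% and 8.63% of all genes were called lower. At E1 they were -1.57 (adjusted p = 0.16) and -1.66 (adjusted p = 0.058) and were not called, but both were with the shared library-name number as a block (-1.87 and -1.91, adjusted p = 0.024 and 0.01), where the E4 and Ech differences were kept.

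The summed astrocyte genes were below every control in the same spinal cord libraries, except E1 library 2. Expressed per 1000 CPM of the 10 summed astrocyte genes, Cx3cl1 had a median of 3.55 in the spinal cord controls (range 2.66 to 4.62), 1.83 at E1 (0.780 to 4.78), 2.79 at E4 (0.860 to 5.35) and 4.27 at Ech (1.94 to 7.12). The EAE ranges overlapped the control range at every stage, but at E1 this rested on library 5. The E1 libraries held 2.58, 1.38, 1.83, 0.780 and 4.78, and all but library 5 lay below every control. At E4 libraries 1, 2 and 6 (1.58, 0.860 and 2.64) lay below every control. At Ech libraries 4 and 5 (2.36 and 1.94) lay below and libraries 1, 2 and 3 (7.12, 5.07 and 4.73) above. A difference in this ratio was not tested. Of 5 neuron marker genes 4 were called lower and 1 higher in spinal cord at E4, and their sum went from 160 to 291 CPM at C to 474 to 707 CPM. The part of either in the Cx3cl1 result was not tested.

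**Figure D3:**
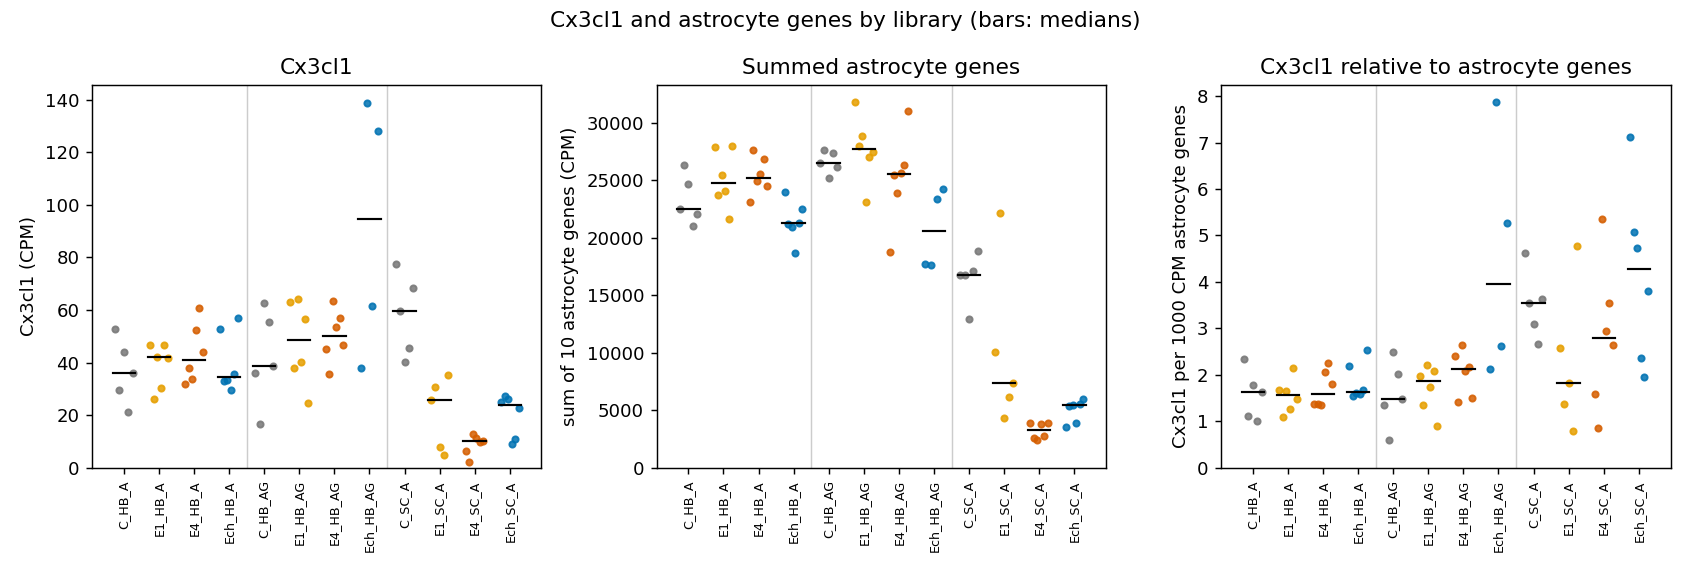
Cx3cl1 (CPM), the summed level of 10 astrocyte genes (CPM) and Cx3cl1 per 1000 CPM of those genes, by group; points are libraries and bars are medians. The spinal cord EAE points lie below the controls in the first 2 panels, except E1 library 2 in the second at 22208 CPM. In the third the EAE ranges overlap the control range of 2.66 to 4.62, though at E1 all libraries but library 5 lie below it.

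Compared stage by stage, Cx3cl1 in spinal cord was lower at E4 than at E1 by a log2 fold change of -1.22 (standard error 0.36, edgeR adjusted p = 0.026, 3.97% of all genes called lower) and higher at Ech than at E4 by 1.18 (0.35, 0.034, 1.95% called higher). The first call was lost without E1 library 1, 2 or 5 or E4 library 1 or 2 and the second without E4 library 1, 2 or 6 or Ech library 1, 2, 3 or 6, with adjusted p up to 0.16 and 0.12. Without both doubted libraries they were -0.94 (adjusted p = 0.18) and 0.98 (adjusted p = 0.12). With the sample-sheet number as a batch term they were -0.39 (edgeR adjusted p = 0.85) and 0.48 (0.67), and neither was called. Nor was either called with the spinal cord fitted alone (adjusted p = 0.12 and 0.13). No other member was called between stages in the fit of all groups, and without both doubted libraries Cxcl10 (log2 fold change -3.03, adjusted p = 0.045) and Cxcl1 (adjusted p = 0.041, at 0 in the remaining E4 libraries) were called lower at E4 than at E1 in spinal cord. In HB_A 0% of all genes were called between E1 and E4 and 0.0857% between E4 and Ech, and in HB_AG 0.0214% and 3.61%. In HB_A the medians of Cxcl10, Cxcl9 and Ccl2 went from 59.1, 17.2 and 15.5 CPM at E4 to 7.03, 1.96 and 0.19 CPM at Ech, and with the HB_A libraries fitted alone these 3 differences were called (log2 fold change -2.47, -2.81 and -4.58, adjusted p = 0.00062, 0.0056 and 6e-04 from edgeR).

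Among the controls no member was called between populations, where 10.5% of all genes were called between HB_AG and HB_A, 4.2% between SC_A and HB_A and 13.8% between SC_A and HB_AG. Every HB_A control has a sample-sheet number of 56 or below, and every HB_AG and SC_A control has one above 56. Differences of the HB_A controls from the other controls therefore cannot be told apart from a difference between these sets of numbers. Cxcl10, at 0.508 to 7.58 CPM in HB_AG and 0 in HB_A, came closest to a call (adjusted p = 0.05 from edgeR), and the 2 groups did not overlap. It was called with edgeR's own filter (adjusted p = 0.047), with no filter (0.011), with DESeq2 (0.0027) and with the library-name number as a block (5.6e-05), and under that block it was also called lower in SC_A than in HB_AG (log2 fold change -2.36, adjusted p = 0.0097). Under the block 10.4% and 12.8% of all genes were called in these comparisons. Apart from Cx3cl1 no member's response was called as different between populations without the block. With it there were 11 such calls in place of 4, and the added ones were the E1 differences of Cx3cl1 and 5 of Cxcl10. The Cxcl10 response was called smaller in HB_AG than in HB_A at E1, E4 and Ech (adjusted p = 0.005, 2.6e-05 and 0.0022, where 0.59%, 0.465% and 1.08% of all genes were called), smaller in SC_A than in HB_A at E4 (0.0019, 7.25% of all genes), and larger in SC_A than in HB_AG at E1 (log2 difference 2.68, 0.044, 3.69% of all genes). Since Cxcl10 was at 0 in all HB_A controls, the sizes of the differences from HB_A rest on the prior count and are not given. The E4 difference of SC_A from HB_A was also called with no filter (adjusted p = 0.021), with DESeq2 (0.01) and without both doubted libraries (0.037). Without the block the tests of the difference that gave no member called 0.00857% of all genes for HB_AG against HB_A at E1, 0.00857% at E4 and 0.06% at Ech, and at E1 0.214% for SC_A against HB_A and 1.99% for SC_A against HB_AG. Whether the number of called members differed between populations was not tested.

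The median log2 fold change over the 9 members, with genes at 0 in the controls set at their lower bound or at 0, was 1.65 at E1, 1.52 at E4 and 0.14 at Ech in HB_A. It was 2.47, 1.55 and 1.13 in HB_AG and 1.18, 1.09 and 0 in spinal cord. The median over all genes tested was 0 in each of these comparisons.

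Summed T cell and myeloid markers reached higher values in EAE libraries than in controls despite the CD11B and CD45 gate. The 7 T cell genes summed to at most 6.53 CPM in any control, and to between 0 and 280 CPM in HB_AG at E1 and 21.8 and 458 CPM in HB_AG at E4. The HB_AG E1 library with the most Ccl5 (101 CPM, library 4) was also that with the highest T cell sum (280 CPM) and the highest CD45 transcript (Ptprc, 211 CPM), and the HB_AG E4 library with the most Ccl5 (33.6 CPM, library 1) held 458 CPM of T cell genes. In HB_A the 12 myeloid genes summed to 27.0 to 61.6 CPM in controls, 62.3 to 224 CPM at E1 and 78.4 to 363 CPM at E4, above every control. Of the 12 myeloid genes 1 was called higher in HB_A at E4, 4 in HB_AG at E1 and at E4, and 9 in spinal cord at E4. In spinal cord the myeloid sums were 10.8 to 32.2 CPM at C, 35.3 to 114 at E1, 69.4 to 3276 at E4 and 29.3 to 137 at Ech, and the T cell sums were 1.24 to 26.9, 6.82 to 45.4 and 0.454 to 16.2 CPM at E1, E4 and Ech. In HB_A the T cell sums were 0 to 3.68 CPM at C, 10.9 to 52.2 at E1, 12.6 to 100 at E4 and 0 to 27.1 at Ech, so that every E1 and E4 library lay above every control, and no single T cell gene was called there. The summed level of 5 dendritic cell genes had lower medians in spinal cord EAE libraries, of 18 CPM at C and 7.72, 6.02 and 4.83 CPM at E1, E4 and Ech. Of these genes 1, 2 and 1 were called lower, and their median log2 fold change was -1.58, 0.85 and -1.90. At E4 the sums ran from 0.778 to 32.3 CPM, against 11.2 to 22.3 CPM at C. Of the 7 T cell genes 1, 4 and 2 were called higher in spinal cord at E1, E4 and Ech, and 3, 4 and 1 in HB_AG. The T cell receptor gene Cd3e, 1 of the 7, was at 0 in all spinal cord libraries at C and at E1. The 5 neutrophil genes summed to at most 2.20 CPM in the spinal cord controls, and to 5.53 to 13.0, 4.51 to 536 and 0 to 27.1 CPM at E1, E4 and Ech. Of the 4 tested, 2 were called higher in spinal cord at each stage and 1 in HB_AG at E1 and at E4. The 4 B cell genes summed to at most 4.66 CPM. The part of leukocyte RNA in the chemokine results was not tested.

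**Figure D4:**
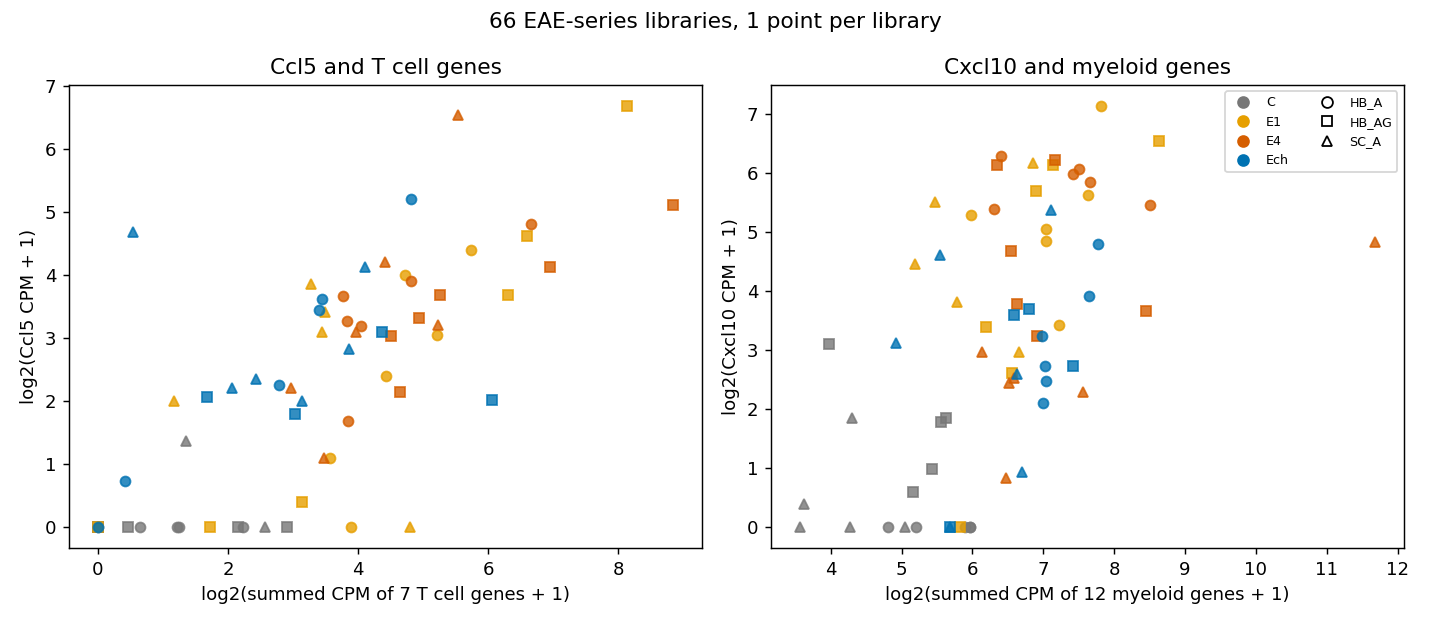
Ccl5 against the sum of 7 T cell genes (left) and Cxcl10 against the sum of 12 myeloid genes (right), both axes as log2(CPM + 1), 1 point per EAE library; colours are stages and shapes are populations. Controls lie toward the left of both panels, and spinal cord E4 library 2 lies at the far right of the second, at 3276 CPM of myeloid genes.

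Of 27 listed ligands that are not among the 9, 21 were tested, and none was called in HB_A at any stage. In HB_AG Cxcl5, a CXCR2 ligand like Cxcl1, was called higher at E1 (log2 fold change 3.53, standard error 0.75, edgeR adjusted p = 0.0037) and at E4 (2.54, 0.72, 0.044), and Cxcl2, also a CXCR2 ligand, at E1 (adjusted p = 0.012). In spinal cord Cxcl14, a ligand made constitutively by many tissues, went from 349 to 562 CPM in the controls to 16.9 to 42.2 CPM at E4, and was called lower at all stages, with log2 fold changes of -1.52, -3.91 and -3.62 (adjusted p = 3.5e-05, 2.1e-19 and 2.7e-18). Ccl3, Ccl4, Ccl6, Cxcl2 and Cxcl16 were called higher in spinal cord at E4, and each was highest in library 2, with 30.5, 33.2, 757, 87.6 and 85.8 CPM. The median log2 fold change over the ligands tested, bounded as above, was 0 in 8 of the 9 comparisons and 0.04 in HB_A at Ech.

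Among 20 chemokine receptors tested of 23 listed, none was called in HB_A. Ccr2, the receptor of CCL2 and CCL7 on monocytes, and Cxcr6, found on T cells, were called higher in HB_AG at E1 and E4 and in spinal cord at E1, and Cxcr6 in HB_AG at Ech. Ackr1, a scavenging receptor, was called lower in spinal cord at E1. In spinal cord at E4 Ccr2, Ccr1, Cxcr2 and Cx3cr1 were called higher, and the scavenging receptors Ackr1, Ackr3 and Ackr4 were called lower (log2 fold change -3.39, -2.91 and -3.94, adjusted p = 0.029, 0.00066 and 0.037 from edgeR). Cx3cr1, the receptor of fractalkine, had a median of 7.14 CPM at E4 and reached 234 CPM in library 2, and it is also one of the 12 myeloid genes. No receptor was called in spinal cord at Ech. The bounded median over the receptors was between 0 and 0.50 in the 9 comparisons.

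Of 19 inducers listed 18 were tested. Stat2, Irf1 and Irf9, transcription factors of interferon signalling, were called higher at E1 and at E4 in each population. Irf1 held 21.3 to 35.0 CPM in the HB_A controls and 282 to 518 CPM at E4, and 3.14 to 29.7 CPM in the spinal cord controls and 311 to 735 CPM at E4, so that the groups did not overlap. At E4 its log2 fold change was 3.76 in HB_A (standard error 0.49, edgeR adjusted p = 7.7e-08), 4.34 in HB_AG (0.51, 3.2e-09) and 4.89 in spinal cord (0.52, 3.5e-12). The cytokine genes Ifng, Il17a and Il6 were not called at any stage, Il1b was called higher in HB_AG and spinal cord at all stages, and Tnf in spinal cord at E4. Of the NF-kappaB genes, Nfkb1, which encodes a subunit, was called lower in spinal cord at E4 (log2 fold change -1.28, adjusted p = 0.011) and at Ech (-2.0, 6.9e-05), Rela, which encodes another, was called higher there at E1 and E4, and the inhibitor gene Nfkbia was called higher in HB_AG at E1 and E4. Between E4 and Ech these 3 transcription factors were called lower in both hindbrain populations, with log2 fold changes of -1.30 to -2.0 in HB_A and -1.73 to -3.20 in HB_AG, and Stat2 alone of them in spinal cord (-1.27, adjusted p = 0.015). Of Adam10, Adam17 and Dpp4, proteases that release or trim chemokines, none was called at any stage. The bounded median was 0.07 to 1.28 over the inducers and -0.24 to 0.49 over the proteases.

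Over the 66 libraries the genes most like each member were found by Pearson's r of log2(CPM + 1) among the 10972 genes whose mean reached 5 CPM. They were Osmr (r = 0.818), Gbp2 (0.814) and Serping1 (0.810) for Cxcl10, Cd74 (0.761), Gbp5 (0.724) and Fcgr3 (0.717) for Cxcl9, and AI662270 (0.857), Ly6a (0.822) and Clec7a (0.820) for Ccl5. For Ccl2 they were F830016B08Rik (0.748), Cxcl10 (0.713) and 9330175E14Rik (0.700), for Ccl7 Lcn2 (0.635), F830016B08Rik (0.626) and Osmr (0.622), and for Cxcl1 Timp1 (0.736), Cxcl10 (0.687) and Cxcl5 (0.660). For Cx3cl1 they were Dclk1 (0.835), Dlgap1 (0.831) and Itm2c (0.821), and for Cxcl12 no gene passed 0.433. These values describe libraries that share stages, sorts and depth.

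In astrocytes sorted from FVB/N mice without EAE most members were near the limit of detection. Before these results it must be said that the names of 12 of the 15 libraries in the labels differ from the names that the study's own gene list gives to the same values, and that the libraries labelled HB_ACSA_pos_glast_neg held 1070 to 1112 CPM of Hox genes, which mark the spinal cord, against 1.07 to 20.7 CPM in those labelled SC_ACSA_pos_glast_neg. Groups are therefore called by their labels only. The totals were 416768 to 1269316 counts, so that 3 counts were worth 2.45 to 7.05 CPM. The members that passed the filter of 10 counts were Cx3cl1 and Cxcl12, and the other 7 had at most 4 counts over the 15 libraries.

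Cx3cl1 was present in all 15 sorted libraries, at 5.46, 7.70 and 27.5 CPM (lowest, middle, highest) in those labelled FB_ACSA_pos_glast_neg, 15.2, 25.8 and 75.5 in FB_ACSA_pos_glast_pos, and 23.3, 36.6 and 63.5 in HB_ACSA_pos_glast_neg. It held 13.9, 18.8 and 27.7 CPM in HB_ACSA_pos_glast_pos and 10.8, 16.1 and 27.9 CPM in SC_ACSA_pos_glast_neg. The groups overlapped, and neither gene was called in any group against the other 4. Of the 14957 genes tested 1.18% were called for FB_ACSA_pos_glast_neg, 1.94% for FB_ACSA_pos_glast_pos, 4.41% for HB_ACSA_pos_glast_neg, 2.49% for HB_ACSA_pos_glast_pos and 7.54% for SC_ACSA_pos_glast_neg. Cxcl12 held 5.78, 6.46 and 8.97 CPM in HB_ACSA_pos_glast_pos, above the 0 to 3.24 CPM of all other sorted libraries (log2 fold change 2.55, standard error 1.27, edgeR adjusted p = 0.42).

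Ccl5, Cxcl10, Ccl2 and Cx3cl1 were called higher in cultured neonatal astrocytes than in the sorted FVB/N libraries. Ccl5 held 7.16, 21.3 and 27.8 CPM in the 3 cultures and a single count in all sorted libraries. Cxcl10 held 2.97, 3 and 8.35 CPM against 0. Ccl2 held 1.00, 1.59 and 5.60 CPM against 3 counts in 1 sorted library, which at 2.45 CPM lay above cultures 1 and 3. The limit of 3 counts was worth 0.343 to 1.19 CPM in the cultures and 2.45 to 7.05 CPM in the sorted libraries. The lower Cxcl10 and Ccl2 values of the cultures lay within or below the second range. Cx3cl1 held 80.7, 86.3 and 87.9 CPM in culture, above all sorted libraries. Of the 5 members tested 4 were called higher in culture, where 23.3% of the 17126 genes tested were: Ccl5 (edgeR adjusted p = 6e-07), Cxcl10 (0.00031), Ccl2 (0.0043, lost without culture 2 at 0.062) and Cx3cl1 (log2 fold change 1.83, standard error 0.36, adjusted p = 8e-05). Cxcl12 was not (0.65, 1.03, 0.69). The cultures also held 277 to 2281 CPM of 11 myeloid genes against 16.1 to 179 CPM in sorted libraries, 221 to 263 CPM of 6 endothelial genes against 2.35 to 41.8 CPM, and 5252 to 5787 CPM of 10 astrocyte genes against at least 21628 CPM, and the part of these in the result was not tested. Culture, age and strain cannot be told apart here.

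**Figure D5:**
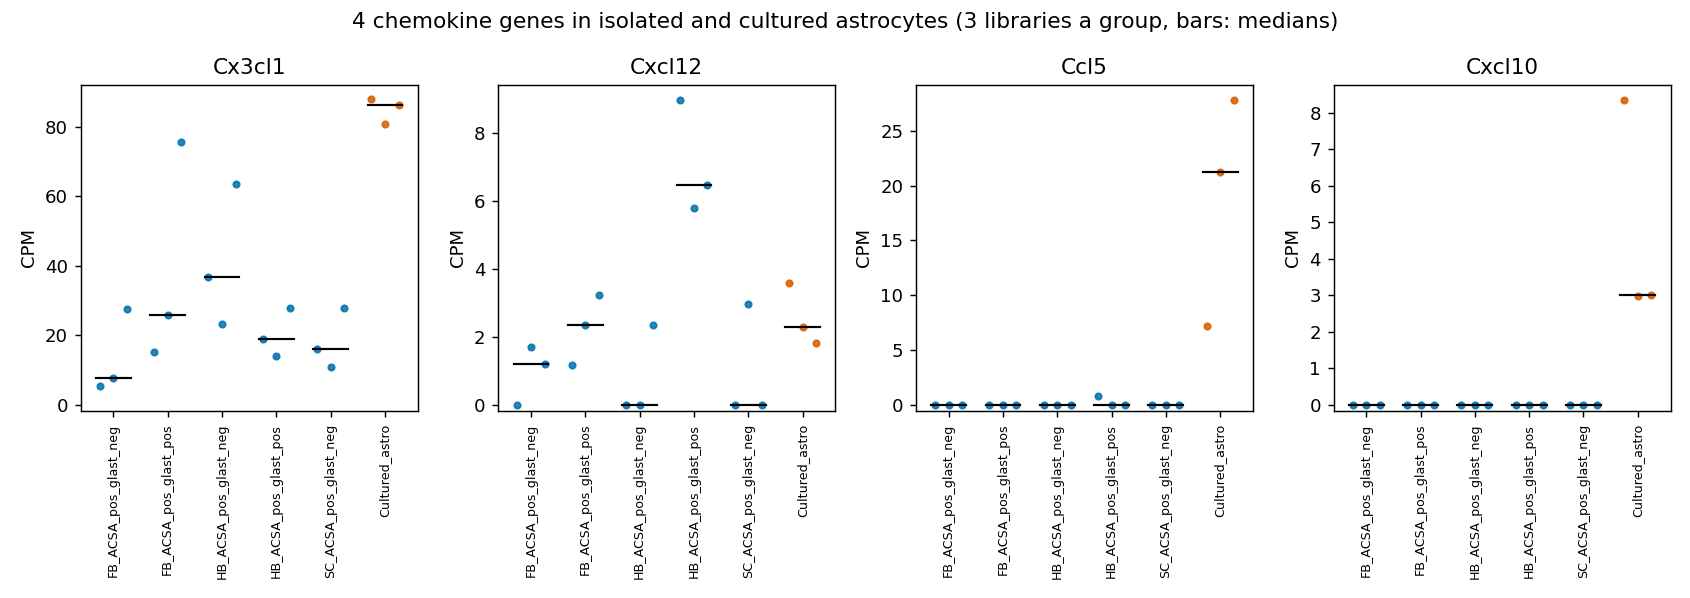
Cx3cl1, Cxcl12, Ccl5 and Cxcl10 (CPM) in the 5 groups of sorted astrocytes, named by their labels, and in cultured astrocytes; points are libraries, 3 in each group, and bars are medians. Cx3cl1 reaches 80.7 to 87.9 CPM in culture, and Ccl5 and Cxcl10 are above 1 count only there.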

How the data were processed

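RNA was measured with a 3′ end library kit (QuantSeq, forward) and single reads. Per the labels and the study's methods, the authors aligned reads to GRCm38 with HISAT 0.1.5 and counted them per gene with HTSeq 0.6.1p1 in union mode, and the deposited values are raw counts per Ensembl gene. Whether counting used the strand is not given in the sources used here. All columns were mapped to samples by their names, no libraries were identical, and library totals are given in the report.

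CPM values are counts scaled to a library total of 1e+06. Genes summing to 10 counts or more were tested with edgeR 4.0.16 in R 4.3.3 (TMM size factors, quasi-likelihood test, Benjamini-Hochberg adjustment over all genes of the fit), and called at an adjusted p below 0.05 with a log2 fold change above 1 or below -1. One fit held the 12 EAE groups, another the 5 sorted groups, and the last the sorted and cultured groups. The differences in response are interaction terms. A fold against a group at 0 was computed against 3 counts per library, and ratios with 1 to 3 control counts carry an exact 95% interval. Alternatives were DESeq2 1.42.0, RLE size factors, edgeR's own filter or none, a replicate block, the sample-sheet number as a batch term, each population alone, and each library left out in turn, for which the trended dispersion of the EAE fit was reused. The bias-adjusted quasi-likelihood fit, the block of library-name numbers and the fit without both doubted spinal cord libraries were chosen after seeing the data. The fits were tested on simulated data. Figures were drawn with matplotlib 3.10.9.

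The members, and the lists of other ligands, receptors, inducers, proteases and cell type markers, were chosen with earlier results of these data known. Named genes are all members, and the called genes of each list except an item that is not reported here. Same-numbered EAE libraries of different groups did not deviate together (mean correlation -0.00436, against 0.000974 for other pairs), so replicate numbers were not taken to pair samples. The number in the library names does recur across populations of 1 stage (49 pairs of libraries, mean correlation 0.0381, over 0.1 in 8, against -0.00562 in 314 other pairs) with a meaning the labels do not give, so comparisons between populations were also fitted with it as a block on the 64 linked libraries. Nothing says that replicates came from separate experiments, and p-values measure the spread between these libraries, which may be technical. The authors' own lists of fold changes were not used.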

Additional observations from a re-analysis of the deposited data

Results flagged for a closer look

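In 15 of 108 groups of 4 to 6 EAE libraries tested, 1 library lay far from the others for a member by Dixon's criterion. Chance meets this criterion in about 1 in 20 groups of normally spread values. A group with only 1 library above 0 meets it at any level, so the share flagged here cannot be set against that rate. The other libraries of the flagged groups were mostly at 0. Among controls these were Ccl5 in spinal cord control 4 (1.57 CPM), Cxcl10 in spinal cord control 3 (2.58 CPM), Cxcl1 in HB_AG control 5 (1.72 CPM), and Cxcl9 in HB_A control 4 (1.39 CPM) and HB_AG control 4 (0.254 CPM, a single count). Ccl2 stood out in HB_AG E4 library 6 (4.32 CPM), HB_A Ech library 3 (3.23 CPM) and HB_AG Ech library 1 (2.68 CPM). Ccl7 did so in HB_AG E1 library 4 (1.81 CPM), HB_A Ech library 3 (1.21 CPM) and spinal cord Ech library 1 (1.65 CPM), and Cxcl1 in HB_AG Ech library 3 (3.67 CPM) and spinal cord Ech library 1 (2.12 CPM). Spinal cord E4 library 2, which held the most myeloid transcripts, was the only library of its group with Cxcl1 (4.04 CPM) or Cxcl13 (3.14 CPM).

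The Cx3cl1 response differed between spinal cord and hindbrain by the interaction term in edgeR. The difference of log2 fold changes was -2.95 against HB_A and -2.96 against HB_AG at E4, and -1.66 and -2.64 at Ech.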

How the results depend on the processing

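Members were called 31 times over the 9 comparisons of a stage with its controls, 2 times between stages, 0 times between control populations, 4 times among the differences in response, 0 times among the sorted subtypes and 4 times in cultured against isolated cells. No call changed its sign in any alternative. Between control populations Cxcl10 was the 1 call with edgeR's own filter, with no filter and with DESeq2. With the library-name number as a block there were 2 calls between control populations and 11 among the differences in response. With the sample-sheet number as a batch term 0 calls between stages were left, and 4 were made with the bias-adjusted fit. In cultured cells 1 call was left with edgeR's own filter, which removed low genes, and 2 with DESeq2, which gave no adjusted p for Ccl2 and Cxcl10. Stage calls numbered 21 with the bias-adjusted fit and 28 to 35 in the others. With 1 library left out at a time there were 25 to 32 stage calls, 0 to 2 between stages, 0 to 1 between controls, 3 to 5 differences in response, 3 to 4 in cultured cells and 0 in the subtypes. Under the replicate block there were 31 stage calls, 2 between stages, 0 between controls, 4 differences, 0 in the subtypes and 4 in cultured cells, with Ccl7 and Cxcl1 at E1 in spinal cord lost and Ccl5 at Ech gained in both hindbrain populations. Low counts limit all members but Cx3cl1 and Cxcl10, and most of their folds are lower bounds.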
